A study of Mus musculus with 9 samples.

Results

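H3K23ac-only regions are the places in the chromatin of mouse lung endothelial cells that the region list of histone H3 lysine 23 acetylation (H3K23ac) holds and that none of 7 other histone mark lists touches by a single base. They number 40380 of the 90317 regions on the H3K23ac list, which is 44.7% (exact binomial 95% interval 44.4 to 45.0%). The other 49937 H3K23ac regions share at least 1 base with another list and are called shared here. The cells were isolated from the lungs of wild-type (WT) mice, and strain, sex and age are not given in the labels. Chromatin was profiled by ACT-seq, in which an antibody brings a Protein A/G-Tn5 transposase to its mark so that the DNA there is cut and tagged. The 9 targets were H3K23ac, H3K27ac, H3K18ac, H3K14ac, H3K9ac, H4K8ac, H2AK5ac, H3K4me3 and an IgG control, each with 1 library. No value has a replicate error, so no test was run, and intervals cover counting error only. The members were chosen by measured values, namely the presence of a region on the H3K23ac list and its absence from the 7 others. Their number and their lack of overlap are therefore a description and not a finding.

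Acetylation of lysine 23 on the tail of histone H3 neutralises a positive charge close to lysine 18 and lysine 27. The acetyltransferases KAT6A (MOZ) and KAT6B (MORF), which work in complexes with the scaffolds BRPF1, BRD1 (also called BRPF2) and BRPF3, write this mark, and CREBBP and EP300 can also acetylate this residue. TRIM24 reads H3K23ac next to unmethylated lysine 4 through its joined PHD finger and bromodomain. Most other acetylations profiled here, together with H3K4me3, are known from active promoters and enhancers.

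A few H3K23ac-only regions lay in promoter DNA, and 4 of them show how unlike in sequence these places were. In 39 genes an H3K23ac-only region covered bases just upstream of the gene's outermost start, and no other list had a region in the 300-base promoter window. The 4 genes below were chosen after their values were seen, to show few and many CpG dinucleotides beside each other. Each line gives the part of the promoter window that the region covers, 5′ to 3′ on the strand of the gene, from RefSeq for GRCm38.p6, with every CpG in capitals.
Mrgpra9, chr7:47252915-47253120, - strand: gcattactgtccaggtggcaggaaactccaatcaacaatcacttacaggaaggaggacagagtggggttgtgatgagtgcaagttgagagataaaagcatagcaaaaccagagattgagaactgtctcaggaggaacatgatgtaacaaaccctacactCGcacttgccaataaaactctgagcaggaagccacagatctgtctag
Cldn4, chr5:134946981-134947184, - strand: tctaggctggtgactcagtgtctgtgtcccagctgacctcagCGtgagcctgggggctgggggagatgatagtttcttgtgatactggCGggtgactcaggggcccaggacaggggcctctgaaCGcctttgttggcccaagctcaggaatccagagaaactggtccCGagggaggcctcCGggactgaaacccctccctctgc
Ngfr, chr11:95587793-95587948, - strand: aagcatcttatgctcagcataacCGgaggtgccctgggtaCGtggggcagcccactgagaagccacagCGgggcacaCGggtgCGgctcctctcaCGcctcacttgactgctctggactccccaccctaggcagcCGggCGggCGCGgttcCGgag
Otp, chr13:94875386-94875575, + strand: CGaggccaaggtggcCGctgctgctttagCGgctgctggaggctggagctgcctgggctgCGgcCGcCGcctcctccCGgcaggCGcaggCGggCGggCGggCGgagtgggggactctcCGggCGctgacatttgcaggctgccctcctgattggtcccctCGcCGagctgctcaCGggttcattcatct
The stretch at Mrgpra9, of the Mas-related receptor family known from sensory neurons, is a whole H3K23ac-only region of 206 bp. It held 1 CpG at 45.6% G and C, and its identifier had 168 H3K23ac reads. At Cldn4, which encodes a tight junction claudin of epithelia, 5 CpGs lay in 204 bases and the identifier had 322 H3K23ac reads. At Ngfr, the low-affinity receptor for neurotrophins, 11 CpGs lay in 156 bases and the count was 175. At Otp, a homeobox factor of the hypothalamus, 17 CpGs lay in 190 bases at 71.6% G and C, and the count was 64. An identifier is a row of the deposited table that can add up regions of several lists, so these counts are not of the printed bases alone.

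MicroRNA hairpins gave another view of sequences inside the set. H3K23ac-only regions overlapped 10 of 1005 hairpins, and shared H3K23ac regions overlapped 63. The regions hold 8399780 and 16535762 bases in that order. No share of hairpins to be met by bases alone was computed, so nothing is read from these counts. Of the 10, the highest H3K23ac counts belonged to the identifiers at Mir130b (208 reads) and Mir30a (148 reads), which were chosen here after their values were seen. Their mature sequences follow, from RefSeq for GRCm38.p6, with the seed (bases 2 to 8) in capitals.
mmu-miR-130b-3p: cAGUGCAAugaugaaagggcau
mmu-miR-130b-5p: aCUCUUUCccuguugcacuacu
mmu-miR-30a-5p: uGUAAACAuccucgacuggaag
mmu-miR-30a-3p: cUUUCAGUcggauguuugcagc
The Mir130b hairpin lies at chr16:17124061-17124142 under the region chr16:17123951-17124156, and the Mir30a hairpin at chr1:23272269-23272339 under the region chr1:23272229-23272434. Lower counts were found at Mir683-2 (110 reads), Mir7662 (46 reads), Mir343 (44 reads) and Mir7031 (20 reads). Mir497, Mir497b, Mir6940 and Mir1894 had 0 reads in the H3K23ac library although their regions are on its list. Mir497 and Mir497b overlap 1 and the same region, each only in part. Mir343, Mir1894 and Mir7031 also lie only in part under their regions. No 2 of the mature sequences at these 10 hairpins share a seed.

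Library totals in the count table ran from 365999 reads (IgG) to 10044130 (H3K14ac), with 4803692 reads for H3K23ac. Markers of endothelial cells carried shared H3K23ac regions within 2 kb of a gene end in 26 of 32 genes. Markers of lung capillary endothelium had such regions in 6 of 15 genes, which is 40%. They were found at 5 of 19 lung epithelium, 5 of 21 leukocyte and 5 of 19 mesenchyme markers. Of all 21883 protein-coding genes 11148 had one, which is 50.9%.

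H3K23ac-only regions were mostly at the minimum width of their list. Of the 40380, 98.1% (exact binomial 95% interval 98.0 to 98.2%) had the minimum width of the list, 206 bp, and the widest was 648 bp. On the 21 assembled chromosomes, 745 of 39633 were wider than the minimum. Of 48677 shared H3K23ac regions there, 28156 had the minimum width. The same rule applied to the other lists left 79.5% of H3K14ac, 38.4% of H4K8ac, 33.6% of H3K18ac, 31.7% of H3K4me3, 29.1% of H2AK5ac, 20.2% of H3K9ac and 12.1% of H3K27ac regions. H3K23ac thus had the second highest share of regions alone. List length differs from 48943 (H3K9ac) to 578465 regions (H3K14ac), and its part in these shares was not tested. Regions left on the other lists were also mostly at the minimum width of their own list. This held for 98.3% in H3K9ac, 98.0% in H2AK5ac, 95.3% in H3K4me3 and 94.2% in H4K8ac. It held for 92.5% in H3K18ac, 89.7% in H3K14ac and 73.1% in H3K27ac. The minimum width differs by list and is largest for H3K23ac.

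The rule divides the list at a single base. Just inside it, 607 H3K23ac-only regions had a region of another list 10 bp away or nearer, and 18.3% of those on chromosomes lay within 2 kb of a gene end. Just outside it, 630 regions shared 10 bases or fewer with another list, and 15.1% lay there.

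Reads were checked where a count could be given to 1 region. In 188 identifiers an H3K23ac-only region held at least 90% of the unshared bases, that is, bases under no region of another identifier. These are a small part of the set and not a random one. Of the 188, 17.0% (11.9 to 23.2%) lay within 2 kb of a gene end, against 11.4% of all H3K23ac-only regions on chromosomes, and 2 were wider than the minimum. In these 188 regions the H3K23ac library had a lowest count of 0, a median of 88 and a highest of 304 reads. The H3K27ac library had 0, 2 and 44 reads, and in all 7 remaining libraries the median was 0. The highest counts there were 76 for H3K4me3, 63 for H3K18ac, 46 for IgG, 45 for H4K8ac, 22 for H3K14ac, 11 for H3K9ac and 5 for H2AK5ac. H3K23ac reads were present in 179 of the 188 regions, H3K27ac reads in 122, H3K14ac reads in 60 and IgG reads in 1. In 46 of the 188 no other library had a read. H3K23ac counts were thus far above those of every other library in most of these regions, which is the measure by which the list was made.

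**Figure D1:**
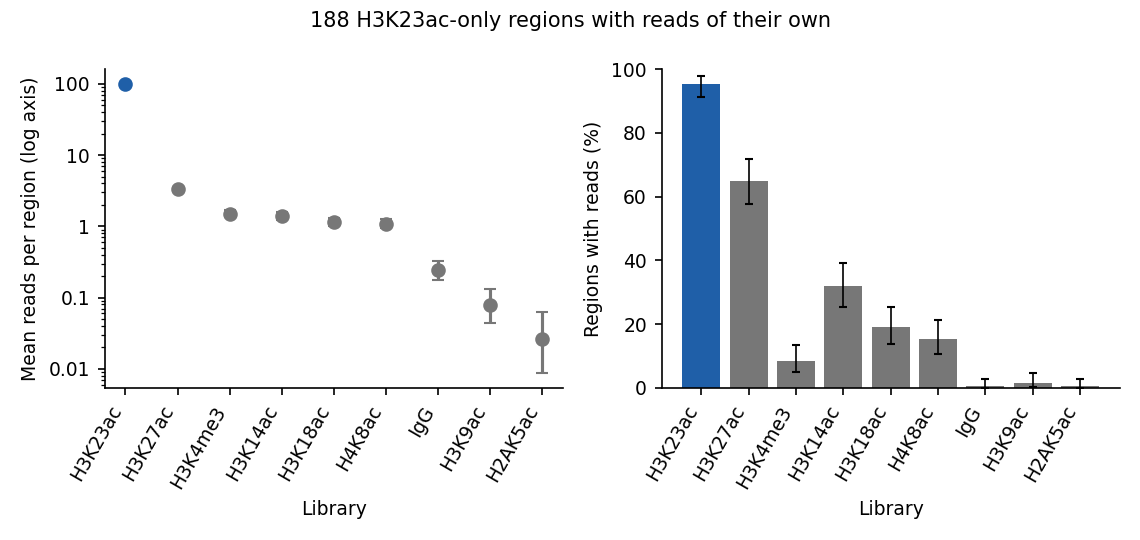
Reads of 188 H3K23ac-only regions that hold at least 90% of the unshared bases of their identifier, by library. The left panel gives the mean reads per region on a log axis with exact Poisson 95% intervals, which take reads as independent. The right panel gives the percent of regions with reads, with exact binomial 95% intervals. H3K23ac averaged 99.9 reads per region and H3K27ac, the next, 3.35.

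Scaled to library size and length, the 188 regions had 100.2 H3K23ac CPM (counts scaled to the total of the library in the table) per kb, 6.37 H3K27ac CPM per kb and 3.22 IgG CPM per kb. All 46 IgG reads came from 1 region. A count of H3K23ac at least 2-fold over IgG, with at least 10 reads over both, was found in 171 of the 188 regions, against 8.49% of all identifiers. The rule used the H3K23ac list, so nothing is read from that gap. The median log2 difference of H3K23ac over IgG was 4.87 with a prior count of 2 and 6.83 with one of 0.5, as IgG had reads in 1 of the 188 regions.

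Regions with the most reads among the 188 were spread over genes and gene-poor places. The highest count, 304 H3K23ac reads, was at chr9:106430792-106430997 in Rpl29, a ribosomal protein gene, with 38 H3K4me3 and 12 H3K27ac reads. At chr5:58578704-58578909, outside genes, 302 H3K23ac reads stood beside 2 of H3K27ac and 1 of H3K14ac. The nearest start there, of the protocadherin Pcdh7, was 860725 bp away. Outside genes too were chr5:104868763-104868968, at -8797 bp from the nearest start (Zfp951), and chr6:140852809-140853014, at 226026 bp from it (Aebp2). The H3K23ac count was 278 at both places, with 4 and 1 H3K27ac reads. At chr5:92084437-92084642, in the stress granule gene G3bp2 at -941 bp from a coding start (upstream), there were 262 H3K23ac reads and 0 in each of the 8 other libraries. The same pattern held at chr17:57625851-57626056, outside genes, with 256 H3K23ac reads and 0 elsewhere. The fatty acid transporter gene Slc27a1 had 262 H3K23ac reads in chr8:71580862-71581067, with 21 of H3K14ac, 19 of H3K27ac and 17 of H3K18ac. The remaining 3 of the 10 highest lay in Sntb2 (255 reads), Cmip (244 reads) and at the end of the calmodulin gene Calm3 (236 reads).

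A larger part of the set, 9564 of the 40380 regions, could be read in identifiers that join few lists. Identifiers 69184 to 90317 join regions of 5 lists, H3K23ac among them, and the next block, 90318 to 114890, joins the other 4 without an H3K23ac region. The H3K23ac library had a median of 72 reads (quartiles 26 and 148) in 9564 identifiers with an H3K23ac-only region. The median was 0 in 24572 identifiers without an H3K23ac region, of which 4.87% had reads. The list was made from the H3K23ac library, so this gap is a description fixed by the choice of members. The median was also 0 in 11564 identifiers with a shared H3K23ac region, of which 22.5% had reads. Reads over regions of several identifiers were not counted by the authors' settings, and shared regions kept 15.1% of their bases unshared, against all bases of H3K23ac-only regions. Counts of shared and of H3K23ac-only regions can therefore not be compared as they stand.

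Per kb of unshared bases, estimated by non-negative least squares over identifiers, H3K23ac-only regions held 98.9 H3K23ac CPM. Those of minimum width held 97.0 and the wider ones 136.5, and the unshared bases of shared regions 66.6. The value of shared regions covers only the bases that other identifiers left free. Whether H3K23ac was stronger in H3K23ac-only or in shared regions cannot be told from it. In regions of minimum width the next libraries were H3K27ac with 5.94, H3K18ac with 2.67, IgG with 2.39 and H4K8ac with 2.21 CPM per kb. H3K14ac was at 0.558, and H3K4me3, H3K9ac and H2AK5ac were estimated at 0, the lower bound of the method. The rule removed every region that touches another list, so low values of the other marks describe the choice of members. With no region of another list allowed within 500 bp, the values over all widths moved from 6.50 to 4.24 for H3K27ac. They moved from 3.32 to 0.845 for H3K18ac, from 2.82 to 0.820 for H4K8ac and from 4.70 to 8.01 for IgG. IgG then came next after H3K23ac, but its reads lay in few identifiers. In the block that joins 5 lists, 42 of 9564 identifiers with an H3K23ac-only region had IgG reads, while 93.2% had H3K27ac reads. Each of these identifiers also holds a region of the H3K27ac list, so the H3K27ac share does not describe H3K23ac-only regions. It was 88.4% in identifiers with a shared H3K23ac region and 84.1% in the next block, without H3K23ac regions.

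Wider H3K23ac-only regions carried more of the other marks. They held 25.4 H3K4me3, 16.6 H3K27ac, 15.1 H3K18ac, 13.8 H4K8ac and 7.48 H3K9ac CPM per kb. In the same block of identifiers, H3K4me3 reads were found in 38.1% of 168 identifiers with a wider H3K23ac-only region. The share was 19.3% of 9564 with any H3K23ac-only region and 22.2% with a shared region. In the next block, without H3K23ac regions, it was 13.03%. Identifiers there join fewer lists, so that value cannot be compared directly with the others. The IgG estimate of wider H3K23ac-only regions was 46.3 CPM per kb. It fell to 0, by construction, when identifiers with IgG reads were left out, while H3K4me3 was then 26.1 and H3K23ac 136.7. None of the 168 identifiers had an IgG read, which allows a share of up to 2.17% (exact binomial 95% interval).

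The 10 widest regions were examined by name, with reads that sum over all regions of each identifier. The widest, 648 bp at chr6:56795569-56796216, lay 1321 bp downstream of the start of Kbtbd2 and overlapped Gm10209, and its identifier had 520 H3K23ac, 80 H3K4me3 and 18 H3K27ac reads. The second, 639 bp at chr18:62176046-62176684 within 2 kb of a gene end, had 687 H3K23ac reads. In Tspan9, a tetraspanin gene, 602 bp at chr6:128006976-128007577 had 732 H3K23ac reads, the highest of the 10, and 0 of H3K4me3. Ubac2 and Vgll4, a cofactor of TEAD factors, each held a region of 575 bp, with 414 and 565 H3K23ac reads. A region of 574 bp overlapped the ends of Cox4i2 and of Bcl2l1, an anti-apoptotic gene, and had 108 reads. At Pim3, a serine/threonine kinase gene, 573 bp at chr15:88864769-88865341 had 515 H3K23ac, 230 H3K4me3 and 189 H3K9ac reads. The last 3 were 487 bp wide, in Disp1 (74 reads) and outside genes. For those outside genes the nearest starts were of Cpsf6 at -17264 bp (266 reads) and of Diaph3 at 584470 bp (190 reads).

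H3K23ac-only regions lay mainly inside or outside genes rather than at gene ends. Of 39633 on chromosomes, 11.4% (11.1 to 11.7%) were within 2 kb of an end of a protein-coding gene, 47.2% elsewhere in genes and 41.3% outside. Shared H3K23ac regions divided into 34.1%, 41.0% and 24.9%. The bases of the chromosomes divide into 5.49%, 34.9% and 59.6%, so the H3K23ac-only share at gene ends was 2.08 times the share of bases and that of shared regions 6.21 times. Wider H3K23ac-only regions were at gene ends in 18.9%, elsewhere in genes in 55.6% and outside in 25.5%. The part of the rule, which removes regions that touch other lists, was not tested.

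The same rule on other lists gives another reference for that share. Regions on 1 list alone were at gene ends in 17.5% for H3K9ac, 14.2% for H3K4me3, 11.05% for H4K8ac, 10.3% for H2AK5ac, 8.08% for H3K18ac, 7.82% for H3K27ac and 4.61% for H3K14ac. H3K23ac came after H3K9ac and H3K4me3 in this order. Its interval of 11.1 to 11.7% overlaps that of H4K8ac (10.8 to 11.3%).

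**Figure D2:**
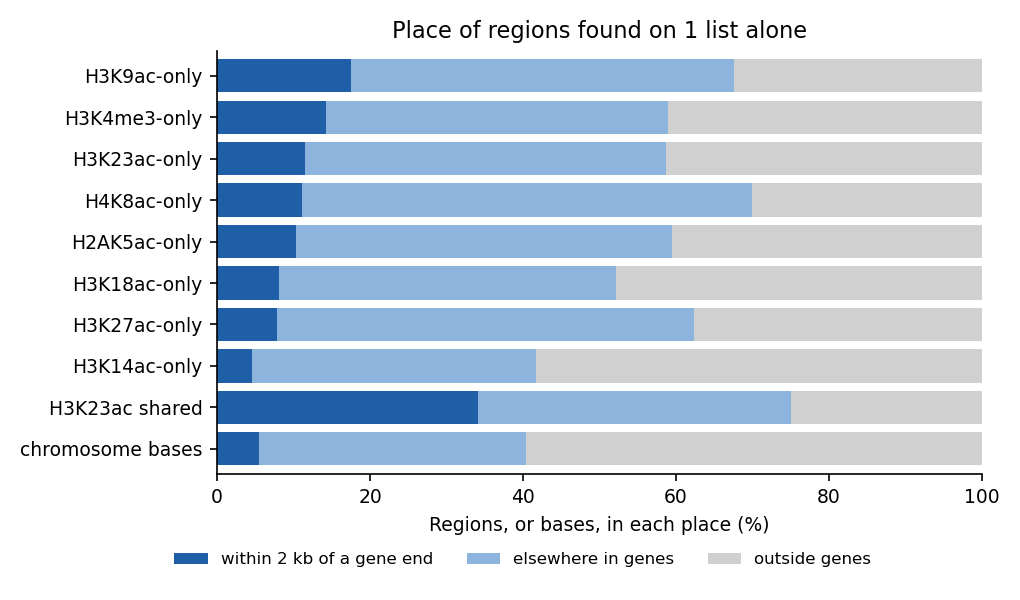
Place of regions found on 1 list alone, for each of 8 lists, above shared H3K23ac regions and the bases of the chromosomes. Each bar adds up to all regions, or bases, split into those within 2 kb of an end of a protein-coding gene, elsewhere in genes and outside genes. H3K23ac-only regions had 11.4% at gene ends, against 34.1% of shared H3K23ac regions.

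Around starts of protein-coding transcripts, H3K23ac-only regions were at about the share of bases at the start itself and above it on the flanks, more so on the downstream side. Starts were those of a RefSeq promoter table with 21262 starts of 17491 genes, and starts on chromosome 18 were not used here, which leaves 38366 H3K23ac-only regions. Within 250 bp of a start lay 123 of them, 0.321% (0.267 to 0.382%), against 13.5% of shared regions and 0.374% of bases. Within 2 kb lay 6.25%, against 29.0% of shared regions and 2.77% of bases. The interval of H3K23ac-only regions within 250 bp holds the share of bases. Another list had a region within 500 bp of all but 27.03% of starts, and the part of the rule in the shares at starts was not tested.

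Between 500 and 2000 bp from a start, 1306 H3K23ac-only regions lay downstream and 787 upstream. The downstream share was 62.4% (60.3 to 64.5%), in wider regions 75% (64.6 to 83.6%, 66 of 88) and in shared regions 74.3% (73.0 to 75.5%). Per share of bases the downstream flank held 3.22 times and the upstream flank 2.09 times. The highest 500-bp bin was 1000 to 1500 bp downstream, with 502 regions at 3.71 times the share of bases, and the bins on either side of the start stood at 1.16 and 1.01 times. Regions on 1 list alone were downstream in 73.8% for H3K4me3, 64.3% for H3K9ac, 57.9% for H3K27ac, 55.1% for H3K18ac, 54.6% for H3K14ac, 53.7% for H4K8ac and 51.7% for H2AK5ac. The H3K23ac interval overlaps those of H3K9ac (60.9 to 67.7%) and H3K27ac (51.8 to 63.7%) and lies under that of H3K4me3 (70.8 to 76.7%).

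**Figure D3:**
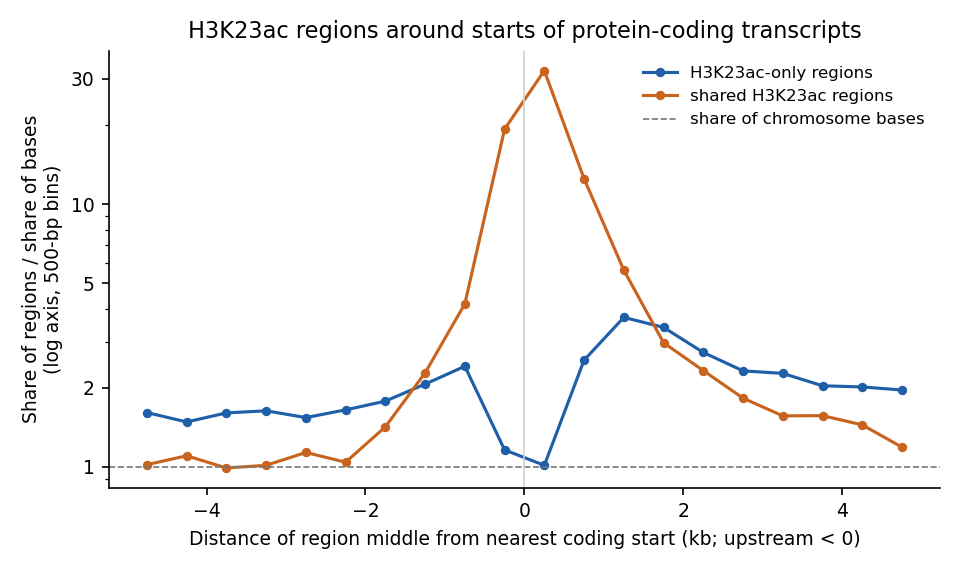
H3K23ac-only and shared H3K23ac regions by distance of their middle from the nearest coding start, in bins of 500 bp, downstream to the right. The log axis gives the percent of regions in a bin over the percent of chromosome bases in it, and 1 marks equality. H3K23ac-only regions peak at 3.71 in the bin 1000 to 1500 bp downstream, and shared regions at 32.3 in the bin next to the start.

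The starts that had an H3K23ac-only region nearby were mostly starts marked by other lists. Of 2914 starts with an H3K23ac-only region within 2 kb, 32.7% had regions of all 7 other lists within 500 bp, against 22.4% of all 21262 starts. Another 14.5% had none of the 7, against 27.03%. A shared H3K23ac region lay within 500 bp in 63.7%, against 45.9%. By gene, an H3K23ac-only region at a gene end was found in 6.11% of 2176 genes with none of the 7 other lists at their ends, 13.3% of 6083 with 1 to 3, 23.2% of 6628 with 4 to 6 and 30.3% of 6996 with all 7.

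Promoter windows with an H3K23ac-only region had fewer CpGs than windows with a shared one. CpGs were counted over the whole window and not under the region alone. The part of the rule, which removes regions that touch other lists, was not tested. In 133 promoter windows (250 bases before to 50 after a start) with an H3K23ac-only region the median was 8 CpGs (quartiles 3 and 20) and 54.7% G and C. In 8445 windows with a shared H3K23ac region the median was 24 CpGs (17 and 31) and 63.0%, in 12684 windows without H3K23ac 5 (2 and 14) and 51.3%, and in all 21262 windows 13 and 56.3%. The ratio of observed to expected CpG reached 0.6 in 32.3% of H3K23ac-only windows (24.5 to 41.0%), 83.0% of shared windows and 24.3% of windows without. In the 97 windows with no other list the share was 27.8%. The letters TATAAA on either strand were in 18.8% of the 133 windows, 5.42% of shared windows, 17.3% of windows without H3K23ac and 12.6% of all. CCAAT, on either strand, was in 32.3% of the 133 and 38.2% of all, and GGAAGT, the core of ETS sites, in 16.5% and 24.8%. None of these 3 motifs contains another.

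Of the other lists, the longest, H3K14ac, lay nearest to H3K23ac-only regions by its median distance. The median distance to the nearest region of any other list was 792 bp (quartiles 281 and 1899), and 56.8% had one within 1 kb. Without the H3K14ac list in the rule and in the distance, the median was 1751 bp and the share 37.3%. By list the median was 1307 bp to H3K14ac, 3583 bp to H4K8ac, 3727 bp to H3K18ac, 5394 bp to H3K27ac, 10970 bp to H3K4me3, 11480 bp to H2AK5ac and 15663 bp to H3K9ac. The nearest shared H3K23ac region was at a median of 15335 bp. Except for H3K4me3 and H2AK5ac, this order follows the lengths of the lists, and the part of length was not tested.

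Among themselves, 36.9% (36.4 to 37.4%) of H3K23ac-only regions had another within 10 kb, against 71.9% of shared H3K23ac regions. They formed 6008 groups of at least 2, of which 214 held 5 or more. The largest group, 16 H3K23ac-only and 11 shared regions over 55.1 kb at chr8:122471065-122526141, crossed Rnf166, Ctu2 and Piezo1, the mechanically gated ion channel of endothelial cells. The next held 15 H3K23ac-only and 11 shared regions over 44.6 kb at Ggt6, Mybbp1a and Spns2, the exporter of sphingosine phosphate from endothelium. A group of 14 lay at Tgfbr2, the type II receptor for TGF-beta, one of 13 at the non-muscle myosin gene Myh9 and one of 11 at Bcl2l1. These 5 groups were named by their size after the data were seen.

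On chromosomes 1 to 19 there were 13.2 to 21.1 H3K23ac-only regions per Mb, with a median of 15.7 and the highest value on chromosome 11. Chromosome X had 5.20 (888 regions) and chromosome Y 1.62 (147 regions). The share of H3K23ac regions that were H3K23ac-only was 41.6 to 47.6% on chromosomes 1 to 19, 47.5% on X and 85.5% of 172 on Y. Identifiers of Y regions had 0 H3K23ac reads in 61.9% (53.5 to 69.8%) and those of X regions in 11.04%, against 4.11% over all chromosomes. A further 740 regions lay on unplaced contigs and 7 on mitochondrial sequence.

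**Figure D4:**
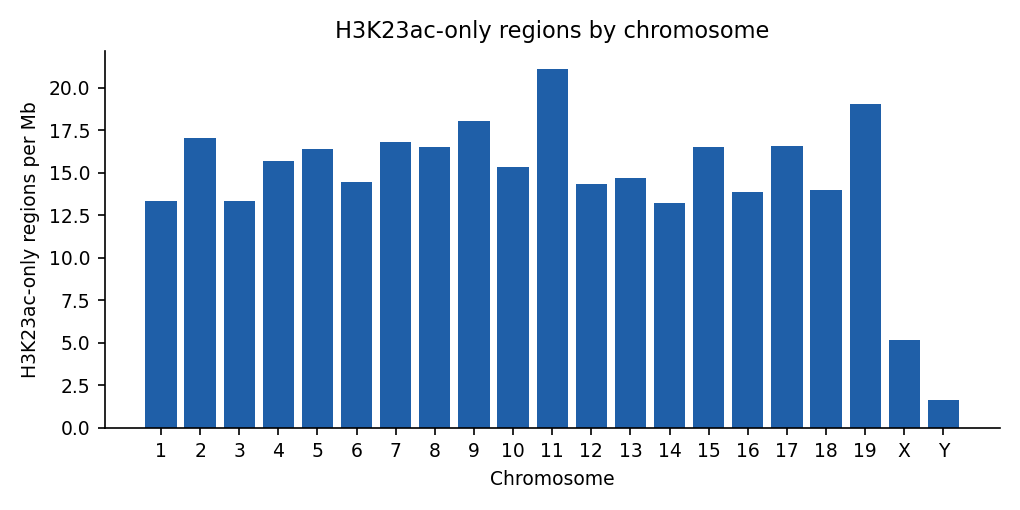
H3K23ac-only regions per Mb of chromosome, up to the last region in the table. Chromosomes 1 to 19 lie between 13.2 and 21.1 per Mb, X at 5.20 and Y at 1.62.

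H3K23ac reads varied with place. The median count of the identifiers was 92 (quartiles 37.5 and 170) for regions at gene ends, 80 (32 and 157) elsewhere in genes and 64 (26 and 142) outside genes. For wider regions it was 186 (96 and 302). The quartile ranges of the 3 places overlap widely.

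Genes were next compared by the H3K23ac-only regions at their ends. Of 21883 protein-coding genes, 4598 or 21.0% had one within 2 kb of an end, and 9311 or 42.5% had one within their span. The most H3K23ac-only bases at the ends, 824 in 4 regions, were found at Ankrd13d and at Slc3a2. Slc3a2 encodes the CD98 heavy chain that carries the cystine transporter Slc7a11 to the cell surface. Mybbp1a, a nucleolar protein gene, had 788 bases, the splicing factor gene Sf3a1 had 763, and Hspa8, the constitutive heat shock cognate chaperone, had 753. C1ql1 (718), Grk2 (709), a kinase of G protein-coupled receptors, Emilin3 (692), Ctnnbip1 (680), an inhibitor of beta-catenin, and B3gat3 (675) completed the first 10. Regions of 7 or 8 of the 8 lists were at the ends of 8 of these genes, and of 4 at C1ql1 and Emilin3. Ankrd13d and Grk2 are neighbours on chromosome 19, so their windows share regions.

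By number over the gene span, long genes led. Tcf4, an E protein of the helix-loop-helix class, had 32 H3K23ac-only and 76 shared regions, Ttc28 had 30 and 50, and Cdh13, which encodes T-cadherin, 28 and 20. Foxp1, a forkhead repressor, had 27 and 39, Ptprm, a receptor phosphatase of endothelial junctions, 27 and 35, and the neuronal adhesion gene Lsamp 27 and 2. Pde4d, a cyclic AMP phosphodiesterase, had 26 and 42, Magi1 24 and 48, Mast4 23 and 36, and Zfhx3 23 and 34. Lsamp and Cdh13 were the only 2 of these 10 with more H3K23ac-only than shared regions. Over all protein-coding genes, 22118 H3K23ac-only and 35906 shared regions lay in spans when a region in several genes is counted for each, so 38.1% were H3K23ac-only, at 21.1 per Mb of span.

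Gene groups relevant to the mark itself and to the tissue were described by counts beside the 21.0% of all genes. Of the writers and readers of lysine 23 acetylation, with the related KAT7 complexes, 3 of 18 had an H3K23ac-only region at an end and 16 of 18 within the span, where all genes had 42.5%, with a median of 2 regions per gene against 0 over all genes. The median gene of this list is 54.2 kb long and that of all genes 17.2 kb, and counts over spans were not adjusted for length. Crebbp and Brd1 each had 8 H3K23ac-only and 2 shared regions in the span, and Kat6b had 4 and 6.

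Endothelial identity genes had an H3K23ac-only region at an end in 12 of 32, with 47.5 per Mb of span and a median of 1 in the span. The ETS factor genes Erg (12 H3K23ac-only and 17 shared), Ets1 (10 and 19) and Fli1 (6 and 25) led this list, all within the span. Of the H3K23ac regions in endothelial gene spans 26.98% were H3K23ac-only, against 38.1% over all genes. Genes of angiogenic growth had one at an end in 7 of 21, with 63.4 per Mb and a median of 2. The co-receptor gene Nrp2 held 15 H3K23ac-only and 23 shared regions, Igf1r 14 and 28, and the netrin receptor gene Unc5b 9 and 18. Lung capillary genes had one at an end in 3 of 15, namely Ednrb, Foxf1 and Gpihbp1. Gpihbp1 had 2 at its ends, while Cd36 and Plvap each had 2 within the span and none at an end.

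Of 30 genes of cystine, cysteine and glutathione, 7 (23.3%) had an H3K23ac-only region at an end and 15 in the span, with a median of 0.5. After Slc3a2, with 5 H3K23ac-only regions over span and windows, came Cbs, which makes cystathionine, with 3 H3K23ac-only and 0 shared regions in its span, and Slc7a11, the cystine importer, with 3 and 5. The share at ends lies near that of all genes.

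Developmental transcription factors had H3K23ac-only regions at more of their genes than shared ones. An H3K23ac-only region was at an end of 11 of 28 genes (39.3%, 21.5 to 59.4%) and a shared one of 4, where all genes had 4598 and 11148 of 21883. In their spans 33 H3K23ac-only and 15 shared regions lay, 68.8% H3K23ac-only, at 58.4 per Mb. When no region of another list was allowed within 500 bp, an H3K23ac-only region was still at an end of 8 of these genes, against 5 of the 32 endothelial identity genes and 2332 of all. Pax7 had 6 H3K23ac-only and 0 shared regions in its span, Pax2 had 5 and 1, and Tbx5 had 3 and 1. A like balance was found at genes of synapses and neuronal adhesion, where all 28 had an H3K23ac-only region in the span, at a median gene length of 1323 kb, and 2 had one at an end. The span totals were 288 H3K23ac-only and 88 shared regions, or 76.6% H3K23ac-only, but at 7.71 per Mb, under the 21.1 of all genes. After Lsamp came Dlg2 (21 and 4) and Nrxn3 (16 and 5).

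Olfactory receptor genes had an H3K23ac-only region at an end in 48 of 1110 (4.32%) and a shared one in 12. Vomeronasal receptor genes had them in 16 and 4 of 355. Olfr12 and Olfr1261 each had 2 at their ends, and Vmn2r114 had 3 in its span. Both families lie far under the 21.0% of all genes.

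Housekeeping genes had an H3K23ac-only region at an end in 12 of 22 and a shared one in all 22. Pgk1, a glycolytic enzyme gene on chromosome X, had 598 H3K23ac-only bases in 2 regions at its ends, Psmb2 had 3 regions in its span and Rab7 had 2. Ribosomal protein genes, taken by the letters of their symbols, had one at an end in 37 of 100. The list takes in 10 kinases named Rps6k, none of which had one, and without them the count was 37 of 90. Rps15a had 4 H3K23ac-only regions over span and windows, 2 of them at its ends, and the kinases Rps6ka2 and Rps6kc1 had 6 and 3 regions within long spans. Immediate-early genes had one in 5 of 19, among them Klf6 with 1 and Fos with 2. In immediate-early and housekeeping spans 17.0% and 18.03% of H3K23ac regions were H3K23ac-only.

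Markers of other lung cells were at or under the share of all genes. An H3K23ac-only region was at an end in 4 of 19 lung epithelium genes, 3 of 19 mesenchyme genes and 1 of 21 leukocyte genes. Abca3 and Cdh1 of epithelium, Pdgfra and Pdgfrb of mesenchyme, and Cd4 and Ptprc of leukocytes had 2 H3K23ac-only regions each over span and windows, and the fibronectin gene Fn1 had 3. In the spans of leukocyte, epithelium and mesenchyme markers 9, 8 and 11 H3K23ac-only regions lay beside 7, 8 and 11 shared ones. Zinc finger genes had one at an end in 71 of 397, with 18 H3K23ac-only regions in the span of Zfp521, 12 in Zfp423 and 9 in Zfp385b. Clustered protocadherins had one in 7 of 57, and their nested spans count the same regions again, 7 H3K23ac-only and 10 shared each in Pcdhga1, Pcdhga10 and Pcdhga11.

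**Figure D5:**
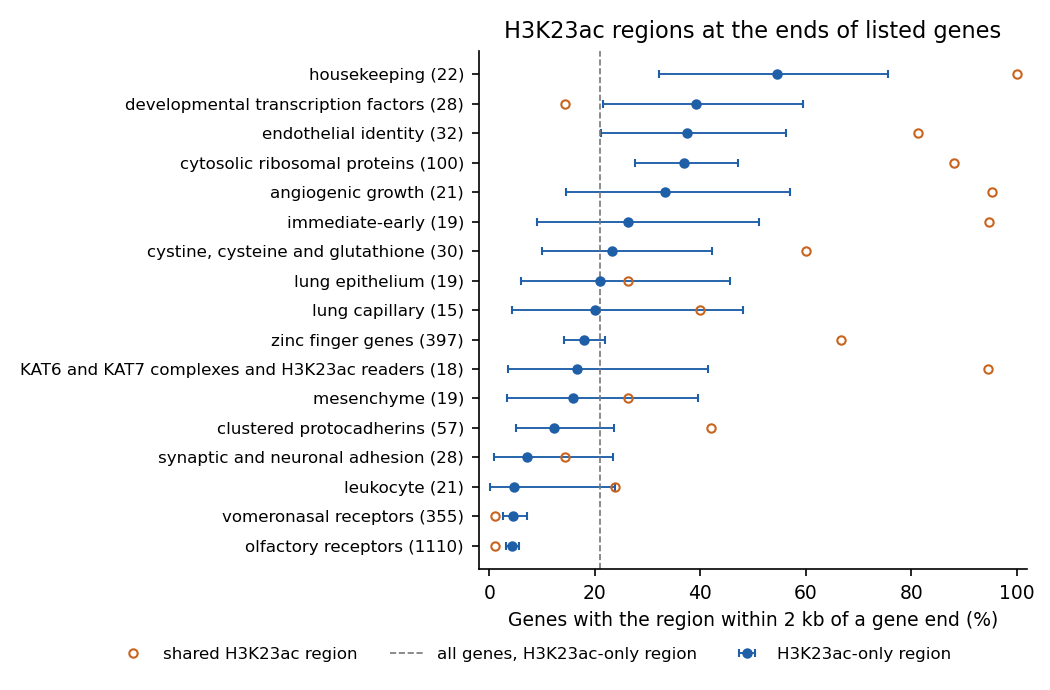
Percent of the genes of each list, with the number of genes in brackets, that have an H3K23ac-only region (filled, with exact binomial 95% intervals) or a shared H3K23ac region (open) within 2 kb of a gene end. The dashed line is the H3K23ac-only share of all protein-coding genes, 21.0%. Developmental transcription factors, olfactory receptors and vomeronasal receptors had more genes with H3K23ac-only than with shared regions.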

How the data were processed

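The deposited file holds counts of reads in 9 libraries under 578465 identifiers, which the authors made with featureCounts 2.0.6 per the file headers. Under the options in its header, both mates of a pair count and a read over several identifiers is dropped. The submitters' processing notes name Trim Galore, STAR, MACS2 and the builds mm10 and GRCm38.p6. How STAR and MACS2 were set is not given in the sources used here. The table joins 8 region lists, each numbered from 1, so an identifier can hold up to 8 unrelated regions. They were separated so that each list runs in genome order with no region under its commonest width, which left 0 breaks. Each list was named by the library densest in it. Starts were read as 0-based and are printed from 1. Genes and starts came from RefSeq tables of GRCm38.p6, without exon or UTR annotation. Densities used non-negative least squares (scipy 1.17.1, numpy 2.4.6). The density fit, the unshared bases and the overlaps were checked on simulated data, and the separation on a mirrored copy of the lists. The other measures were not checked in this way. Simulated reads were independent, with a constant rate per class of region, so errors from uneven or dependent reads could not show. The mirrored lists were those found here, so that check cannot tell whether they are the authors' own. Reads are PCR copies without molecular identifiers, and both mates of a pair count, so reads are not independent. Exact binomial and Poisson 95% intervals cover counting error only. The Poisson intervals take reads as independent and are therefore too narrow. Depth ran from 365999 to 10044130 reads. No test between libraries was run, as there is 1 library per target. The members and gene lists were chosen with earlier results of these data known. Named are the 10 widest regions, the 10 with the most H3K23ac reads among those whose identifier is at least 90% theirs, the 10 genes with the most H3K23ac-only bases at their ends, the 10 with the most regions in the span, and up to 3 genes per list. Alternatives changed the separation, the overlap rule, the gene window, the fit and the share of unshared bases.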

Additional observations from a re-analysis of the deposited data

How the results depend on the processing

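With no region of another list allowed within 500 bp, 25244 regions (28.0% of the list) remained, with 8.89% at gene ends, a median of 1501 bp to another list, 22.2% within 10 kb of each other, 2332 genes with one at an end and 97.1 H3K23ac CPM per kb. Of wider regions alone, the median width was 296.5 bp, 18.9% were at gene ends, 427 bp was the median distance, 4.70% lay within 10 kb of each other, 173 genes had one at an end, the density was 136.9 CPM per kb and the median count 140 reads over 2 regions. Without the H3K14ac list in the rule the share was 50.4%, the distance 1751 bp and the grouped share 40.1%. When only overlaps of at least 100 bases counted, the share was 53.1%. A 1 kb window gave 5.91% at gene ends and 2460 genes, and a 5 kb window 22.7% and 8362 genes. Ordinary least squares gave 99.4 CPM per kb and identifiers with at least 10 reads 99.1. Leaving out identifiers with IgG reads was chosen after seeing the data. Separation by order alone moved none of the 49 values compared beyond its counting interval or, for counts, 1.5 times. H3K4me3, H3K9ac and H2AK5ac densities were below 0 with ordinary least squares, where the main estimates are at 0. An H3K23ac-only call also depends on the depth of the other libraries: 1477463 reads of H3K4me3 can miss weak regions, and no library has a replicate.
No paired analysis was possible because each target has 1 library and no result comes from a test.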
